A study of Bos taurus with 6 samples.

Results

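CLU and MFGE8 encode secreted proteins that bind the debris of damaged and dying cells. Both rows of the table that carry these gene symbols were taken, which is 2 of its 9537 genes. The pair was chosen by its values in this comparison, the calls of the authors' deposited table and the CPM by group, so the difference of each gene between the groups is given as a description and was not tested. RNA sequencing was made of bovine blastocysts produced in vitro in SOFaaci, a standard culture medium for bovine embryos. The groups were embryos with high cryosurvival after vitrification, a form of rapid freezing that avoids ice crystals (3 libraries, titled V), and embryos with low cryosurvival after vitrification (3 libraries, titled NV). The labels explain neither these codes nor whether the RNA was taken before or after vitrification. Nothing in the labels ties the 3 libraries within a group to separate cultures or pools, so p-values measure only the spread between these libraries, which may be technical.

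Clusterin, the product of CLU, is a secreted chaperone. It holds misfolded proteins in solution outside the cell, blocks the assembly of the terminal complement complex on membranes, and carries its cargo to endocytic receptors on other cells. MFGE8, also called lactadherin, is a bridging protein of efferocytosis, the removal of apoptotic cells by other cells. Its discoidin domains bind phosphatidylserine, a lipid that dying cells expose on their surface, and its RGD motif binds the integrins alpha v beta 3 and alpha v beta 5 on the cell that engulfs them. It was first known from the membrane of milk fat globules and is also carried on extracellular vesicles. Blastocysts lose some cells to apoptosis, and neighbouring embryonic cells can take up the remains.

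Values are CPM, that is, read counts divided by a library size that the authors scaled. The libraries held 14651477 to 19467022 reads in the table, and 1 read equalled 0.0499 to 0.0751 CPM. Low cryosurvival library 2 stood apart from the other libraries of its group: over all genes, the median gap between its log2(CPM + 1) and the mean of low libraries 1 and 3 was 0.42. Results that rest on it are given with and without it. CPM is not corrected for transcript length, so levels are compared between libraries and not between genes. In whole embryos, fewer cells of a type and less RNA per cell cannot be told apart.

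CLU was at 15.1, 16.0 and 14.1 CPM in high cryosurvival libraries 1, 2 and 3, and at 36.1, 35.1 and 34.0 CPM in low cryosurvival libraries 1, 2 and 3. Every low library lay above every high library, and the lowest low value was 2.13 times the highest high value. The low mean was 35.1 ± 1.06 CPM and the high mean 15.1 ± 0.953 CPM (SD, n = 3 each), a ratio of 2.33. On the log2(CPM + 1) scale the difference, low minus high, was 1.17 with a standard error of 0.11.

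The CLU values rested on 254 to 305 reads in the high libraries and 467 to 724 reads in the low libraries. Exact 95% Poisson intervals, which cover counting error only, ran from 12.4 to 15.9 CPM for the lowest high library and from 14.2 to 17.9 CPM for the highest. For the low libraries they ran from 31.5 to 36.7 CPM for the lowest and from 33.6 to 38.9 CPM for the highest. The intervals overlapped within each group and did not meet between the groups, so the order of the libraries inside a group cannot be read from these counts. The coefficient of variation between libraries was 6.33% in high and 3.02% in low, beside 6.04% and 4.11% from counting reads alone. The spread of CLU between libraries of a group was thus close to what counting gives, or below it.

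MFGE8 was at 412, 471 and 392 CPM in high cryosurvival libraries 1, 2 and 3, and at 767, 795 and 617 CPM in low cryosurvival libraries 1, 2 and 3. The groups did not overlap, and the lowest low value was 1.31 times the highest high value. The low mean was 727 ± 95.7 CPM and the high mean 425 ± 41.3 CPM (SD, n = 3 each), a ratio of 1.71. The log2(CPM + 1) difference was 0.77 with a standard error of 0.15.

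MFGE8 rested on 7060 to 15366 reads per library, so counting error was small beside the spread between libraries. The coefficient of variation was 9.71% in high and 13.2% in low, against 1.14% and 0.902% from counting. The 95% Poisson interval of low library 3, 606 to 629 CPM, lay below those of low library 1, 755 to 779 CPM, and low library 2, 780 to 811 CPM. In the high group, library 2 had an interval of 461 to 481 CPM, above those of library 1 (403 to 421 CPM) and library 3 (382 to 401 CPM). The libraries of a group therefore differed in MFGE8 by more than counting error, in contrast to CLU.

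**Figure D1:**
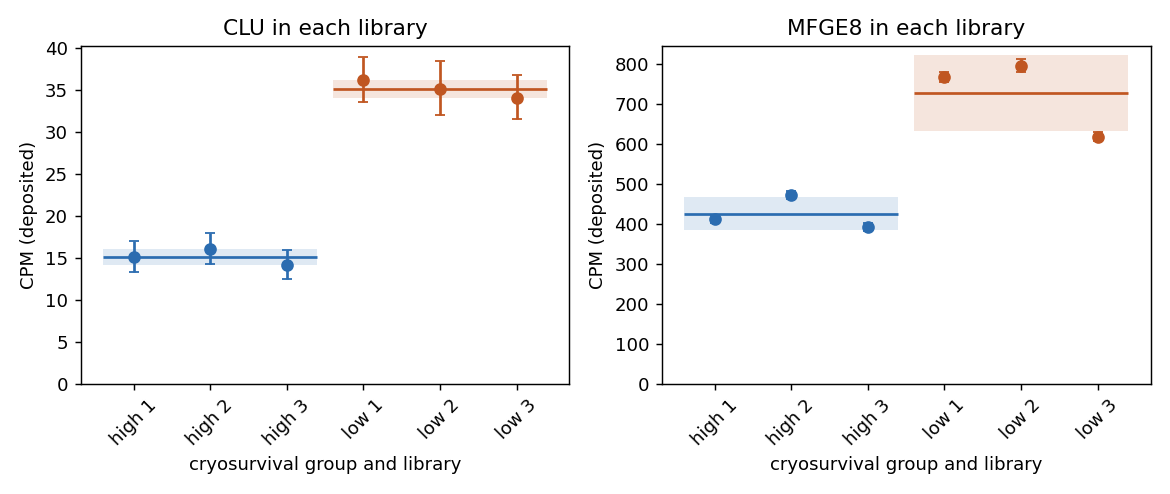
CPM of CLU (left) and MFGE8 (right) in each library. Points are libraries with exact 95% Poisson intervals, lines are group means and bands are 1 SD (n = 3 each). The 3 low cryosurvival libraries lie between 34.0 and 36.1 CPM for CLU and between 617 and 795 CPM for MFGE8, above every high cryosurvival library.

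The choice of the pair rested on the authors' deposited table, where both genes had an adjusted p below 0.05. In the authors' deposited table CLU had a log2 fold, low over high, of 1.22 with an adjusted p given as 0 at 3 decimals, and MFGE8 had 0.77 with an adjusted p of 0.023. The authors' deposited table had 87 genes called higher in low, 0.912% of those tested, and 27 lower, 0.283%. Libraries of the groups did not overlap, with low above high, in 994 genes, 10.4% of all. These shares are the background of the way the pair was picked, and nothing is read from them about the pair.

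Among genes with at least the mean CPM of CLU, 5473 in number with CLU itself, 2 others had a log2 difference as large. These were PTPRN, a receptor-type phosphatase family member of secretory granules, with a log2 difference of 1.73, and the polo-like kinase gene PLK2, with 1.33. They were named after their values were seen. Among the 275 genes with at least the mean CPM of MFGE8, the urokinase gene PLAU was the one other gene with a difference as large, at 0.86. Over the whole table, whatever the mean CPM, 23 genes, CLU included, had a log2 difference of at least that of CLU. For MFGE8 the count was 116, MFGE8 included. By the ratio of mean CPM, low over high, 66 genes reached at least the ratio of CLU and 268 that of MFGE8, each member included. The pair was chosen by this same comparison, so nothing is read from these ranks.

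Low cryosurvival library 2 did not set the difference of either gene. For CLU its value was 35.1 CPM, inside the range of low libraries 1 and 3, and the ratio of low over high was 2.33 with and without it. No gene of the table had a smaller gap between that library and the mean of the other low libraries. The gap of CLU, 2.16e-05 on the log2(CPM + 1) scale, was far below its counting error of 4.11% in low, so nothing is read from this rank. For MFGE8, low library 2 was the highest of its group, 0.21 above the mean of the others on the log2(CPM + 1) scale, and 26.3% of all genes had a smaller gap. Without it the ratio of MFGE8 was 1.63.

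Within a library, the reads of MFGE8 per read of CLU give the balance of the pair, with transcript length the same in every library. They came to 27.3, 29.5 and 27.8 in high libraries 1, 2 and 3, and in low libraries 1, 2 and 3 to 21.2, 22.7 and 18.1. The ratio was thus lower in every low library, at 20.7 ± 2.32 against 28.2 ± 1.11 (SD, n = 3 each), since CLU differed between the groups by more than MFGE8 did. Over the 6 libraries the log2(CPM + 1) values of the pair had a Pearson r of 0.96, a value raised by both being higher in low. The deviations from the group means had an r of 0.78 over the same 6 libraries. In the high group both genes were highest in library 2 and lowest in library 3. In the low group both were lowest in library 3, but CLU was highest in library 1 and MFGE8 in library 2. The deviations of CLU were close to counting error or below it, and both genes share each library's scaling, so this value is a description.

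The genes whose pattern was most like that of each gene were taken by Pearson r of log2(CPM + 1) over the 6 libraries, among 7097 genes with a mean of at least 10 CPM. With CLU, 80 genes had an r of at least 0.95 and 11 of at least 0.99. The highest was BRF2, a subunit of an RNA polymerase III initiation factor, with an r of 0.997 and means of 59.6 CPM (low) and 39.5 CPM (high). The transcription factor gene MEF2D had an r of 0.995, as did HSP90B1, the HSP90 paralog of the endoplasmic reticulum, at 1870 against 1267 CPM. RBM14, an RNA-binding protein gene, had an r of 0.994, and DNAJC10, a disulfide reductase of the endoplasmic reticulum, an r of 0.993 at 152 against 102 CPM. HSPA5, the HSP70 of the same compartment and named after its value was seen, had an r of 0.993 with CLU. The gene least like CLU was CCNL2, a cyclin gene linked to splicing, with an r of -0.995.

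With MFGE8, 74 genes had an r of at least 0.95 and 3 of at least 0.99. Of the 5 highest, 4 are described. ST14, which encodes the epithelial membrane protease matriptase, had an r of 0.992 at 246 against 166 CPM. OSBP, an oxysterol-binding protein gene, followed, then the growth factor gene HDGF with 0.989 and the polarity kinase gene MARK2 with 0.988. ENDOV, an endonuclease gene for inosine in RNA, was least like it, with an r of -0.992. The r of the deviations from the group means was 0.89 to 0.97 for the 5 genes most like MFGE8 and 0.45 to 0.84 for the 5 most like CLU. As for the pair, the r over the 6 libraries holds the difference between the groups, by which the pair was chosen. For MEF2D it was 0.995 beside 0.45 for the deviations, and for ST14 0.992 beside 0.97. Many genes reached such values over the 6 libraries, so they single out none. The part of the scaling that the genes of a library share was not tested.

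**Figure D2:**
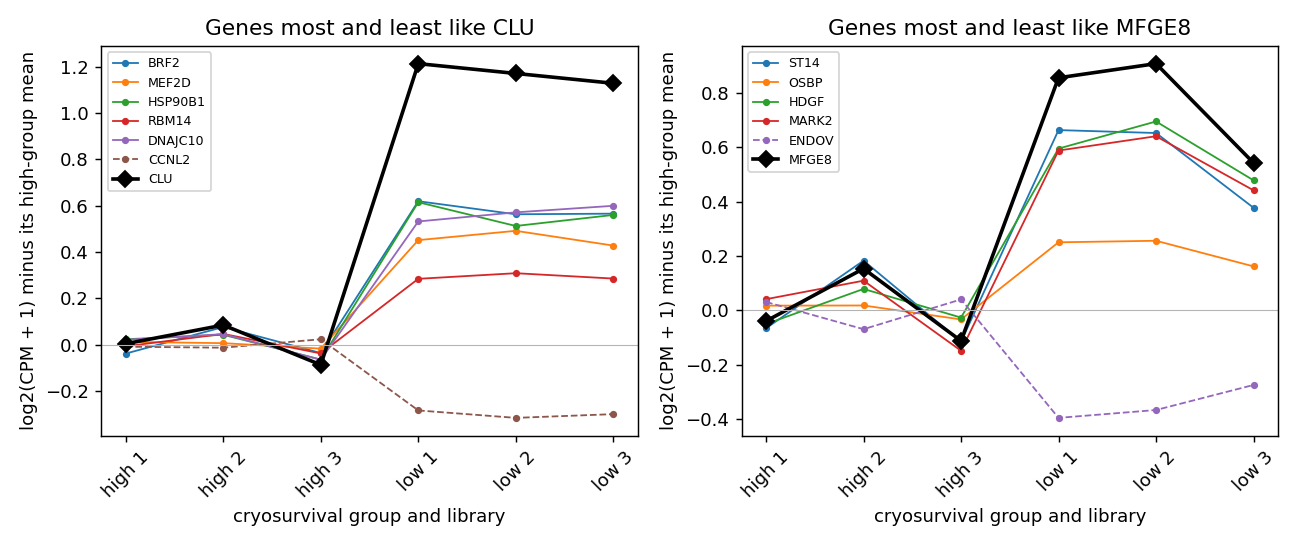
log2(CPM + 1) of each gene minus its mean over the 3 high cryosurvival libraries, by library, for CLU (left) and MFGE8 (right) as black diamonds, genes among the 5 with the highest Pearson r (solid lines, 5 for CLU and 4 for MFGE8) and the 1 with the lowest (dashed); lines only join the points of a gene. CLU lies 1.13 to 1.21 above its high mean in the low libraries and MFGE8 0.54 to 0.91.

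Both members matched a symbol in the RefSeq gene table of assembly ARS-UCD2.0, used here for the order of genes only, and no annotated gene overlaps either of them there. Of the 3 protein-coding genes on each side of CLU, 3 had a row in the expression table: ESCO2, CCDC25 and NDUFB6. Their log2(CPM + 1) differences were -0.07, -0.20 and -0.17, and 0.04, -0.13 and -0.47 without low library 2, where limma called NDUFB6 (adjusted p = 0.0374). Beside MFGE8, the lipase gene ABHD2, its direct neighbour, averaged 195 ± 19.5 CPM in the low and 145 ± 10.7 CPM in the high group (SD, n = 3 each), with a log2 difference of 0.43 (limma adjusted p = 0.271, and 0.49 with 0.0368 without low library 2). FANCI, a gene of DNA crosslink repair, had a difference of -0.28, and of -0.17 without low library 2 (limma adjusted p = 0.537 and 0.255). These neighbours were named by position after their values were seen.

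Genes that act with the pair were followed in 13 lists of 198 genes in all, of which 134 had a row in the table. They were tested with limma, a linear model with moderated variances, on log2(CPM + 1), fitted over all 9537 genes with Benjamini-Hochberg adjustment and a threshold of 0.05. Limma called none of the 134, and it called no gene in the whole table, 0.00%. At an unadjusted p below 0.05 limma had 24 of the 134 (15 higher and 9 lower in low), and 1142 of all genes, 12.0% (6.27% higher and 5.70% lower). On the reads recovered from the CPM, limma's voom method also called none, with 23 of the 134 at an unadjusted p below 0.05. The median log2 difference of the 134 genes was 0.08, against 0.00 over all genes, with 82 higher and 52 lower in low. Their libraries did not overlap between the groups in 33 genes, 24.6%, beside 21.0% of all genes. The authors' deposited table called 3 of the 134, 2.24%, beside 1.20% of all genes, and these were CD55, CRYAB and FOSL1, each higher in low. With 3 libraries a group, an exact permutation test could reach a p of 0.1 at best, and none was made.

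Leaving out low cryosurvival library 2 changed the count of calls most. Without it limma called 22 of the 134 genes, 15 higher and 7 lower in low, 16.4%, beside 1300 of all genes, 13.6% (8.15% higher and 5.48% lower). The low group then holds 2 libraries. With all libraries, the count over the whole table was 0 to 10 under other pseudocounts, a filter at 5 CPM, other scalings and voom, and the count among the 134 stayed at 0. List medians also moved without low library 2, from -0.01 to 0.14 for engulfment receptors, from -0.07 to 0.05 for complement genes, from 0.05 to 0.20 for transcription factors of the CLU promoter and from 0.03 to 0.17 for discoidin domain genes.

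**Figure D3:**
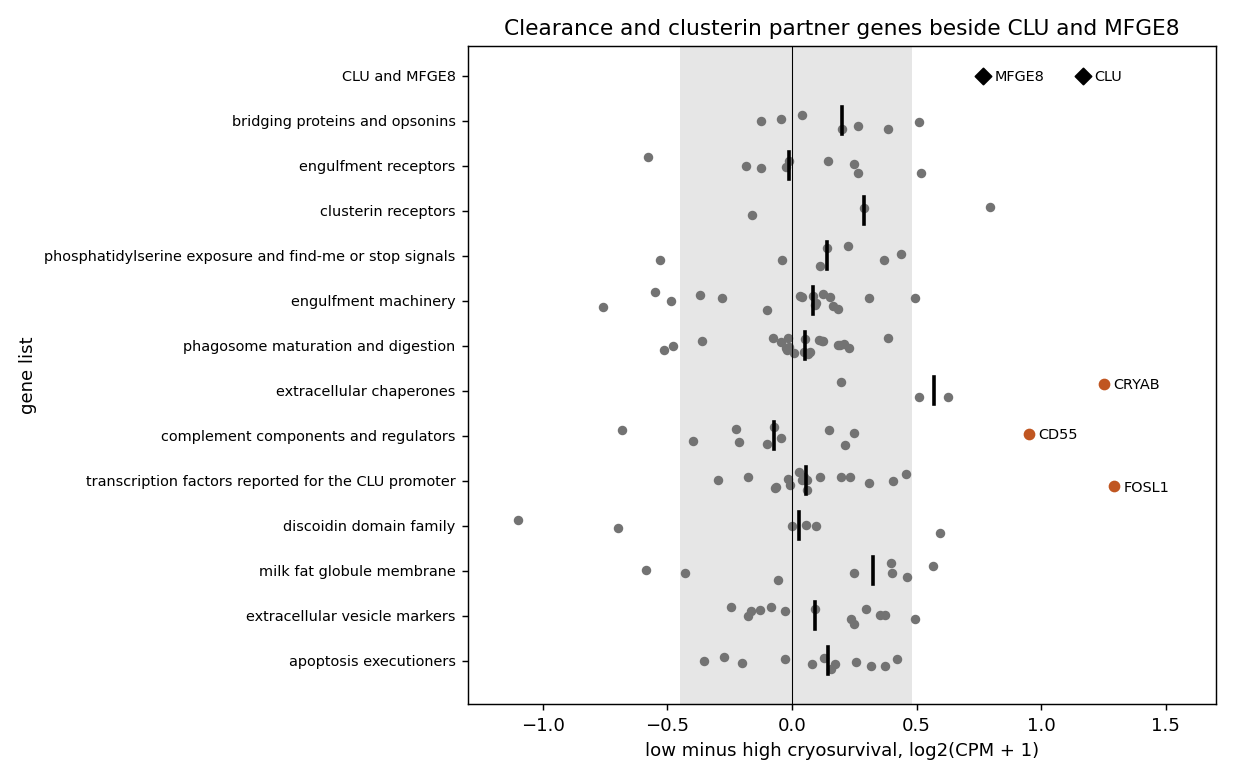
Difference of log2(CPM + 1), low minus high cryosurvival, for each measured gene of the 13 lists (points), with list medians (black bars), CLU and MFGE8 (diamonds, top) and the range from the 5th to the 95th percentile of all genes (grey). Orange points are CD55, CRYAB and FOSL1, called in the authors' deposited table; the list medians run from -0.07 to 0.57.

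Of the other bridging proteins and opsonins, which tag dying cells for uptake, 7 of 17 had a row, with a median log2 difference of 0.20 and no gene called by limma or in the authors' deposited table. EDIL3, the closest relative of MFGE8, and GAS6, the ligand of the TAM receptors, had no row and were not analysed here. CALR, an endoplasmic reticulum chaperone that marks dying cells when exposed, was at 1435, 1529 and 1263 CPM in high and 1768, 2027 and 1728 CPM in low libraries 1, 2 and 3. Its groups did not overlap, and limma gave an adjusted p of 0.332 for a difference of 0.39. The galectin gene LGALS3 had a difference of 0.04, which was 0.12 without low library 2, and FN1, which encodes fibronectin, one of -0.13 that became 0.21 without low library 2.

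Engulfment receptors had 9 of 18 genes measured, a median difference of -0.01 and no call. For the integrin chains that bind MFGE8, the values of the alpha v gene ITGAV were 10.1, 10.7 and 5.55 CPM in high and 19.5, 6.46 and 15.4 CPM in low libraries 1, 2 and 3. Low library 2 lay inside the high range, and the difference of 0.52 (limma adjusted p = 0.737) was 0.95 without that library (0.057). The beta 3 gene ITGB3 had a difference of 0.14 and the beta 5 gene ITGB5 one of 0.26, with 61.4 ± 10.3 CPM in the low and 50.6 ± 3.12 CPM in the high group (SD, n = 3 each). ITGAV and ITGB3 were named as partners of MFGE8 after their values were seen. The TAM receptor kinase genes MERTK and TYRO3 had differences of -0.12 and -0.18, which were 0.14 and -0.11 without low library 2. The integrin genes that pair with MFGE8 thus passed no limma test in these libraries, with or without low library 2.

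Of the receptors of clusterin, 3 of 7 had a row, and LRP2, which encodes megalin, the main uptake receptor of clusterin in epithelia, was not among them. VLDLR, an endocytic receptor of lipoproteins, was at 1.79, 1.31 and 1.44 CPM in high and 3.10, 1.13 and 2.30 CPM in low libraries 1, 2 and 3. Low libraries 1 and 3 lay above the high range and low library 2 below it, with a difference of 0.29 (limma adjusted p = 0.761). Without that library VLDLR was called by limma, with a difference of 0.55 (adjusted p = 0.0429). Its values rested on 15 to 62 reads per library. LRP8, the receptor also known as ApoER2, had a difference of -0.16, and of 0.02 without low library 2.

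Extracellular chaperones, which share the chaperone role of clusterin outside the cell, had 4 of 11 genes measured, each higher in low, with a median of 0.57. CRYAB, a small heat shock protein gene placed in this list because the protein is also found outside cells, was at 3.87, 2.78 and 4.82 CPM in high and 10.3, 12.8 and 8.32 CPM in low libraries 1, 2 and 3. Every low library was above every high library, and its difference was 1.25 (limma adjusted p = 0.142). In the authors' deposited table CRYAB had an adjusted p of 0.002. A2M, the protease trap alpha-2-macroglobulin, was at 19.3, 23.4 and 18.4 CPM in high and 34.6, 23.8 and 39.2 CPM in low. Low library 2 lay just above the highest high library, and the difference of 0.63 (limma adjusted p = 0.309) became 0.83 without it (0.0194). The apolipoprotein genes APOE and APOA1 leaned on low library 2 the other way: their differences of 0.51 and 0.20 became 0.11 and -0.30 without it.

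Complement genes, whose terminal complex clusterin blocks, had 11 of 20 measured, with a median of -0.07, 4 higher and 7 lower in low. CD55, the decay-accelerating factor that dismantles complement convertases on the cell surface, averaged 1.54 ± 0.227 CPM in the high and 3.91 ± 0.129 CPM in the low group (SD, n = 3 each), the low libraries between 3.82 and 4.06 CPM. Its difference was 0.95 (limma adjusted p = 0.0868, and 0.0128 without low library 2), and its adjusted p in the authors' deposited table was 0.011. SERPING1, the inhibitor of the first complement component, lay the other way, at 38.7, 46.9 and 43.5 CPM in high and 32.4, 23.1 and 24.5 CPM in low. The groups did not overlap and limma gave a difference of -0.68 (adjusted p = 0.198, and 0.0447 without low library 2). CD46, a membrane cofactor of complement breakdown, had a difference of 0.25, and C3 one of -0.04 that was 0.05 without low library 2. CD59, which acts on the terminal complex as clusterin does and was named after its value was seen, had a difference of -0.07 (-0.11 without low library 2). The regulators thus differed in direction.

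Transcription factors reported for the CLU promoter had 18 of 19 members measured, a median of 0.05, 12 higher and 6 lower in low. FOSL1, an AP-1 subunit, was at 9.64, 12.7 and 9.43 CPM in high and 38.9, 16.5 and 31.0 CPM in low libraries 1, 2 and 3. Low library 2 was the lowest of its group but above every high library, and the difference was 1.29 (limma adjusted p = 0.192, and 0.0113 without low library 2). In the authors' deposited table FOSL1 had an adjusted p of 0.002. The AP-1 partners JUN and JUNB, named after their values were seen, had differences of 0.41 and 0.46, and their groups did not overlap (limma adjusted p = 0.309 and 0.341). Without low library 2 limma did not call them either (adjusted p = 0.083 and 0.085). RELA, also of the list and named after its values were seen, had a difference of 0.31 with groups that did not overlap (limma adjusted p = 0.396). Without low library 2 limma called it (adjusted p = 0.049). Groups did not overlap in 5 of the 18 genes, 27.8%, beside 21.0% of all genes. The other AP-1 genes of the list, FOS, FOSL2 and JUND, had differences of 0.20, 0.04 and 0.03 with overlapping groups, and of 0.19, 0.38 and -0.18 without low library 2. HSF1, the heat shock factor, averaged 189 ± 18.4 CPM in the low and 198 ± 9.67 CPM in the high group (SD, n = 3 each), a difference of -0.07 that was 0.01 without low library 2. MYBL2, a cell cycle factor, had a difference of -0.18, which was -0.04 without low library 2, and YBX1, a Y-box factor that may share reads with processed copies, one of -0.30 with groups that did not overlap (limma adjusted p = 0.37).

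**Figure D4:**
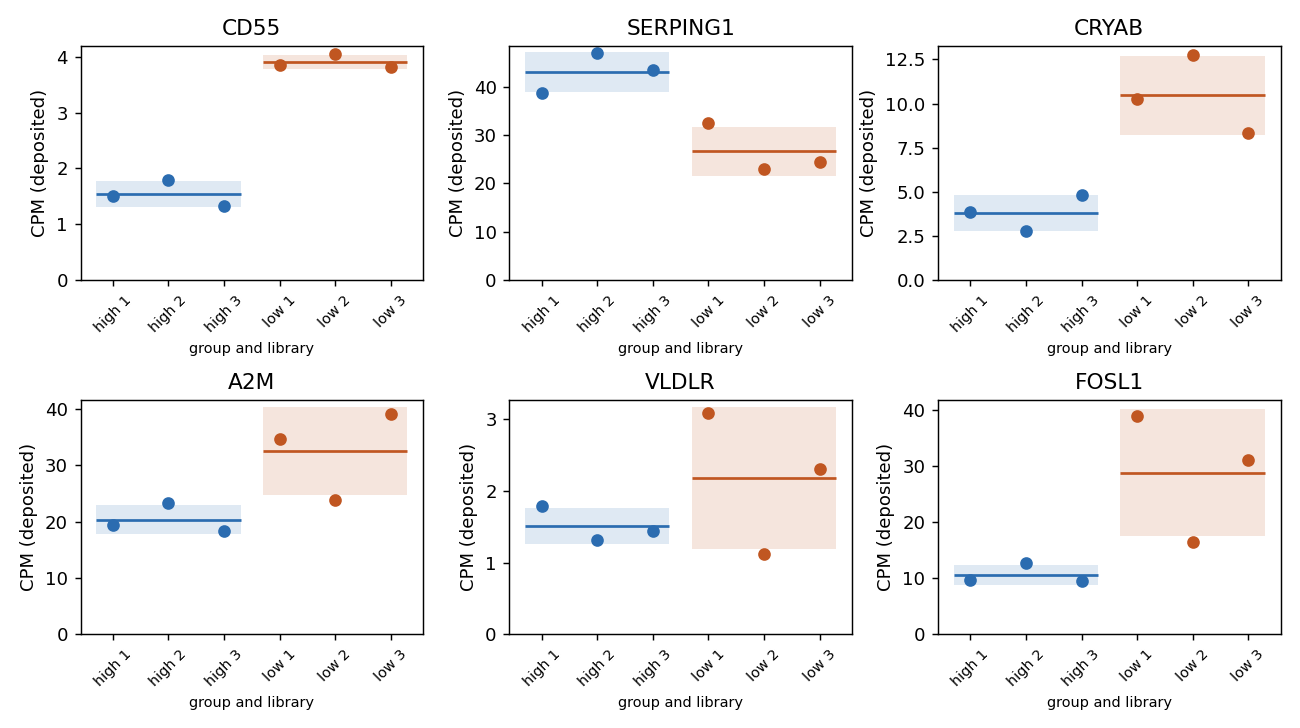
CPM in each library for 6 genes of the lists: the complement regulators CD55 and SERPING1, the extracellular chaperones CRYAB and A2M, the clusterin receptor VLDLR and the AP-1 subunit FOSL1. Points are libraries, lines group means and bands 1 SD (n = 3 each). Low library 2 lies apart from low libraries 1 and 3 for VLDLR (1.13 CPM against 3.10 and 2.30 CPM), while the 3 low values of CD55 lie between 3.82 and 4.06 CPM.

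Exposure of phosphatidylserine, the lipid to which MFGE8 binds, and find-me or stop signals had 7 of 13 genes measured, with a median of 0.14 and no call. TMEM30A, a subunit gene of the flippases that keep the lipid inside, had a difference of 0.22, and the scramblase family gene PLSCR1 one of -0.04, which were 0.49 and 0.09 without low library 2. The median was then 0.22, and limma called PANX1, whose channel releases find-me signals (0.92, adjusted p = 0.0185).

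The engulfment machinery, which remodels actin around the target, had 17 of 21 measured, a median of 0.09 and no call. Its most abundant members RAC1 and CDC42, both small GTPases of actin control, had differences of 0.15 and 0.03, and CYFIP1, of the WAVE complex, one of 0.17. Without low library 2 these were -0.09, -0.12 and 0.37, and the median was 0.12. Limma then called 4 of the 17, 23.5%, beside 13.6% of all genes: WASF2 and PIK3CA higher and ELMO3 and ABCA7 lower in low. With all libraries, ELMO3 and ABCA7 had differences of -0.37 and -0.76 (limma adjusted p = 0.309 and 0.147). Their groups did not overlap, as in 21.0% of all genes, and those of WASF2 and PIK3CA did. Phagosome maturation and digestion had 22 of 23 measured, a median of 0.05 and no call. The lysosomal protease genes CTSD and CTSB had differences of 0.23 and 0.19 and the lysosomal membrane gene LAMP2 one of -0.02. Without low library 2 these were 0.07, 0.11 and -0.11, the median was 0.04, and limma called UVRAG, higher in low.

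The apoptosis executioners had 12 of 14 measured, a median of 0.14 and no call, with BAX at 0.13, DIABLO at 0.17 and CYCS, which has processed copies that may share its reads, at -0.03. Without low library 2 the median was -0.01 and these genes were at -0.04, 0.02 and -0.27. Limma then called 3 of the 12, beside 13.6% of all genes in the same setting (8.15% higher and 5.48% lower in low). The apoptosome gene APAF1 was higher in low at 0.58 (limma adjusted p = 0.0333). The caspase gene CASP6 and the mitochondrial nuclease gene ENDOG were lower in low at -0.59 and -0.51 (limma adjusted p = 0.0198 and 0.0297). The genes called only without low library 2 in these 4 groups were named after their values were seen.

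The relatives of MFGE8 by domain and by source differed in both directions. Discoidin domain genes had 6 of 15 measured and a median of 0.03. CNTNAP1, an axonal adhesion gene, was lower in low in every library, at 46.6 ± 22.3 against 92.1 ± 10.9 CPM (SD, n = 3 each), with a difference of -1.10 (limma adjusted p = 0.335, and -0.63 with 0.0339 without low library 2). DDR1, a collagen receptor kinase, and DCBLD2 had differences of 0.06 and 0.00, and of 0.14 and 0.47 without low library 2. NRP2, named after its values were seen, was at 4.71, 5.77 and 3.94 CPM in high and 14.4, 1.73 and 14.6 CPM in low libraries 1, 2 and 3. Its difference was 0.59 (limma adjusted p = 0.835), and 1.43 without low library 2 (0.0113). Without that library limma called CNTNAP1 and NRP2, 2 of the 6, 33.3%, beside 13.6% of all genes. Milk fat globule genes had 8 of 10 measured and a median of 0.32, which was 0.20 without low library 2. PLIN2, which coats lipid droplets, averaged 113 ± 5.31 CPM in the low and 82.0 ± 6.36 CPM in the high group (SD, n = 3 each), with groups that did not overlap and a difference of 0.46 (limma adjusted p = 0.218, and 0.0352 without low library 2). The mucin gene MUC1 had a difference of 0.57, and FABP3, a fatty acid carrier, one of -0.43 that was -0.73 without low library 2 (limma adjusted p = 0.0199). Extracellular vesicle markers had 13 of 16 measured, a median of 0.09 and no call, with CD9 at 0.24, CD81 at -0.18 and CHMP4B at 0.09. Without low library 2 the median was 0.05, the values of CD9, CD81 and CHMP4B were 0.03, -0.31 and -0.08, and limma called STAM, an endosomal sorting gene named after its value was seen (0.62, adjusted p = 0.0185).

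Markers of the cell types in a blastocyst were taken beside the pair. The keratin genes KRT8 and KRT18, which define the trophectoderm, were present in every library at means of 18187 and 11185 CPM in the low and 18212 and 13197 CPM in the high group. The 10 measured of 12 trophectoderm markers summed to 32476 to 35954 CPM in the high libraries and to 30930, 37987 and 27788 CPM in low libraries 1, 2 and 3. Low libraries 1 and 3 thus lay below the high range and low library 2 above it, in sums that came mostly from KRT8 and KRT18. Of the 10, 9 were lower in low, with a median log2 difference of -0.24 (-0.35 without low library 2). The transcription factor genes GATA2, TFAP2A and TFAP2C and the endocytic adaptor gene DAB2 had groups that did not overlap. Their differences were -0.41, -0.67, -0.12 and -0.46. They made 4 of the 10, beside 21.0% of all genes (10.6% lower in low). Without low library 2 limma called GATA2 alone of the 10 (adjusted p = 0.0333), beside 13.6% of all genes (5.48% lower in low).

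The 8 epiblast and inner cell mass markers summed to 1445 to 1554 CPM in high and 1381 to 1453 CPM in low, with 4 higher and 4 lower. The authors' deposited table called 2 of the 8, both lower in low, beside 1.20% of all genes (0.283% lower in low). These were the pluripotency factor gene NANOG, with a log2 difference of -1.23 here, and the NODAL antagonist gene LEFTY2, with -1.29 (limma adjusted p = 0.164 and 0.176, and 0.0345 and 0.0181 without low library 2). Without that library limma also called LIN28A, higher in low at 0.96, and DPPA3, lower at -0.69 (adjusted p = 0.0277 and 0.0352). With NANOG and LEFTY2 this made 4 of the 8, 50.0%, beside 13.6% of all genes in the same setting. The 9 measured of 12 hypoblast markers summed to 2394 to 3088 CPM in the high libraries and to 3106, 1817 and 3134 CPM in low libraries 1, 2 and 3. Low libraries 1 and 3 thus lay above the high range and low library 2 below it. The sums came mostly from FN1, at 1961 to 2550 CPM in high and 2460, 1240 and 2539 CPM in low. For FN1, low libraries 1 and 3 lay inside the high range. For the basement membrane gene COL4A1 they lay above it, at 370 and 366 CPM against at most 234 CPM in high. The median difference of the 9 markers was 0.47 (0.37 without low library 2), with 6 higher and 3 lower. RSPO3 and BMP2, which encode secreted signals, and the transcription factor gene GATA4 had groups that did not overlap, at 0.88, 0.50 and 0.47, and so had HNF4A, a transcription factor gene that lay the other way at -0.46. They made 4 of the 9, 44.4%, beside 21.0% of all genes (10.4% higher and 10.6% lower in low). Without low library 2 limma called 3 of the 9, 33.3%, beside 13.6% of all genes (8.15% higher in low). These were COL4A1, RSPO3 and BMP2, all higher in low (RSPO3 and BMP2 adjusted p = 0.0352 and 0.0229). The marker genes other than the keratins were named after their values were seen.

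The 6 measured of 14 cumulus and granulosa markers summed to 421 to 548 CPM in high and 396 to 542 CPM in low, mostly from HSD3B1 and CYP11A1. The 4 measured of 10 blood and immune markers summed to 18.3 to 27.0 CPM in high and 27.1 to 28.8 CPM in low, and the macrophage marker gene CD68 among them lay the other way, with means of 6.30 CPM in the low and 10.3 CPM in the high group. No measured marker was at 0 in all libraries, and markers without a row were not analysed here. The part of these cell types in the difference of CLU and MFGE8 was not tested.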

How the data were processed

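The authors' deposited table held 9537 genes with CPM for the 6 libraries and, per gene, a log2 fold with raw and adjusted p-values, written with decimal commas. The unit was worked out from the values: up to 1000 CPM, 100% of them fell within 0.05 read of whole reads, so reads were recovered. The submitters' processing notes name the tools DESeq 1.12.1, HTSeq 0.5.4p2, SAMtools 0.1.18, TopHat2 2.0.8, Cufflinks 2.1.1 and Bowtie2 2.1.0, without roles. Not given in the sources used here are the build, the annotation, the strand setting and any expression filter. Without stated strand use, reads of antisense genes were not told apart. The lowest mean was 0.737 CPM, and a gene with no row was not analysed here.

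Groups came from the sample titles. limma 3.58.1 in R 4.3.3 compared low with high on log2(CPM + 1), two-sided, over all 6 libraries without covariates, adjusting p by Benjamini-Hochberg across the whole table, and was tested on simulated data. Differences are low minus high. The pseudocount of 1 understates those of genes at low CPM. The alternatives were other pseudocounts, a filter at 5 CPM, median centring, TMM factors, a replicate block, voom and leaving out each library. The members and gene lists were chosen with earlier results of these data known, and so support nothing. From each list the 3 genes with the highest mean CPM and every gene called by limma or in the authors' deposited table were named, with the 5 genes most like each member and the 1 least like it; some genes this rule selects are not reported here. Other named genes are marked as chosen after their values were seen. Promoter and protein sequences were not used here.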

Additional observations from a re-analysis of the deposited data

How the results depend on the processing

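The log2(CPM + 1) difference of CLU was 1.17 and lay between 1.13 and 1.22 over 13 alternatives, and that of MFGE8 was 0.77 and lay between 0.70 and 0.88, with the lowest MFGE8 value without low cryosurvival library 2 and the highest without low library 3. The count of genes called by limma was 0 and became 10 with a pseudocount of 0.5, 7 with a pseudocount of 0.1, 7 with a filter at a mean of 5 CPM and 7 with centring on the median of all genes. It was 0 with TMM factors and with voom, and 0 to 1300 when libraries were left out in turn, the 1300 without low library 2. The count among the 134 list genes was 0 in every alternative except without low library 2, where it was 22; over the libraries left out it ranged from 0 to 22. Library numbers are shared by the groups, and the deviations of same-numbered libraries correlated at 0.12, -0.26 and -0.31. Those of differently numbered libraries ran from -0.355 to 0.374. This gave no sign that the numbers pair the libraries. It cannot exclude pairing, since deviations from a mean of 3 libraries are tied to each other. With the replicate block limma called 0 genes, with 797 at an unadjusted p below 0.05 against 1142 without it. No correlation named with CLU or MFGE8 changed sign with a pseudocount of 0.1 or with a library left out. The count models planned for the recovered reads were not run. The cause of the changed counts was not tested. At 254 to 305 reads per high library, the depth does not resolve differences in CLU between libraries of a group, and list genes near 1 CPM rest on few reads.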
